A study of Zea mays with 18 samples.

Results

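The microRNAs (miRNAs) of leaf and root were compared in seedlings of the maize inbred line Q319 at the 3-leaf stage, on day 0 of the experiment and with sufficient phosphate. The count table listed 246 miRNA entries, of which 197 remained when rows of a family with identical values in all 8 libraries were counted once. Of these, 149 had at least 10 counts in at least 2 of the 8 sufficient-phosphate libraries and were compared between the organs. They comprised 97 guide strands and 52 star strands from 25 families, and 147 of them met the same minimum within the 4 day 0 libraries alone.

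Plants were grown in nutrient solution with 1000 µM KH2PO4, and leaf and root were each represented by 2 libraries, every one a pool of material from 15 to 20 plants. All plants were of one inbred line with no transgene named in the labels. The wider study held 18 libraries, which also covered both organs on day 8 at the 4-leaf stage and a low-phosphate course (5 µM KH2PO4) with 1 library per organ and day. The table held miRNAs and no protein-coding transcripts, so the organ labels were not checked against marker genes.

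Plant miRNAs are cut from hairpin precursors as a duplex of a guide strand, which is loaded into an ARGONAUTE protein and directs cleavage or translational repression of matching mRNAs, and a star strand, which is usually degraded. The star strand is written here with an asterisk. Most conserved families act on a small set of targets: transcription factors that pattern organs and time development, auxin receptors and response factors, copper proteins, and transporters or regulators of phosphate and sulfate uptake. Several hairpins of a family can yield the same mature sequence, so counts of such entries rest largely on the same reads. The 149 entries formed 103 groups once those within 10% or 3 counts of each other in all 8 libraries were put together.

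The 4 libraries held between 8179650 and 12799128 counts with identical rows counted once. Replicates had a Pearson r of 0.997 in leaf and 0.996 in root over the 149 entries on a log2 scale, and leaf against root had 0.864, given as a description across entries. The families miR156, miR528, miR168 and miR166 together held 97.5% and 97.4% of these summed counts in leaf and 96.3% and 96.6% in root. These shares sum every row that was not identical to another, so reads shared by near-identical rows were added more than once. In leaf replicate 1, miR156a and miR156c had 609367 and 609258 counts. In root replicate 1, miR166a and miR166b had 200176 and 200128. The shares therefore do not rank the families by reads. The largest single entry was miR528b in leaf, with 21.4% and 22.6% of the same totals, and miR168a in root, with 8.33% and 8.84%. The summed share of miR156 was 47.0% and 46.3% in leaf and 56.9% and 51.7% in root. That of miR528 was 39.5% and 41.8% in leaf against 5.85% and 7.92% in root. For miR166 it was 4.47% and 3.86% in leaf against 16.9% and 19.2% in root. For miR168 it was 6.50% and 5.49% against 16.7% and 17.7%. The plot of family shares shows these 4 families on the right, and miR397, miR398, miR408 and miR827 with leaf symbols clearly to the right of root symbols.

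**Figure D1:**
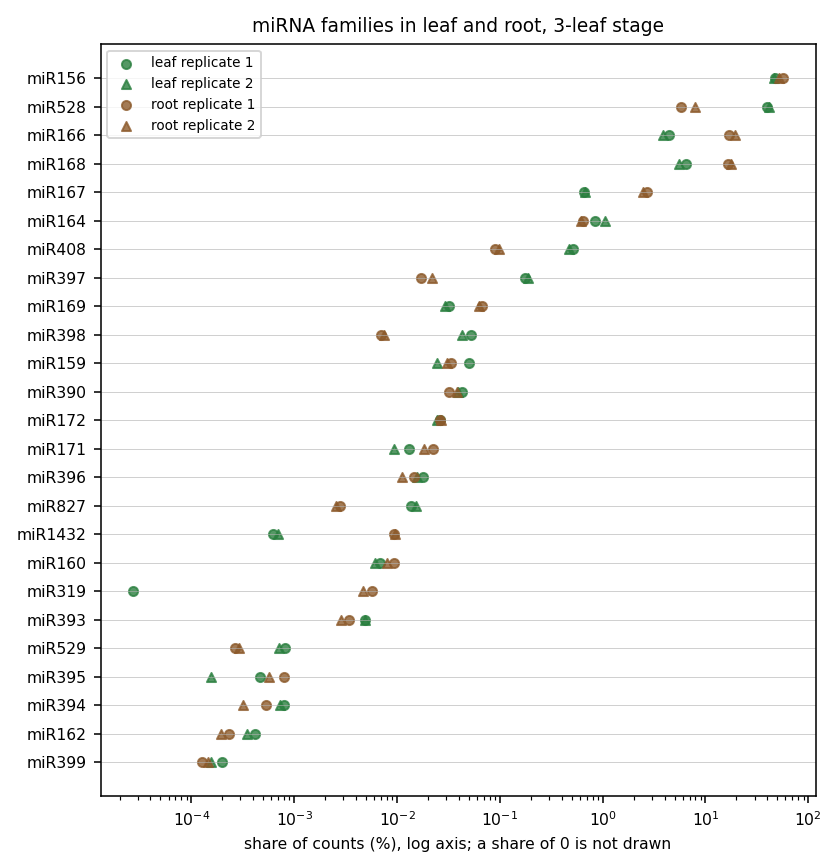
Share of the summed counts, in percent on a log axis, of each of 25 miRNA families in the 2 leaf (green) and 2 root (brown) libraries at the 3-leaf stage, with replicate 1 as circles and replicate 2 as triangles. Each near-identical row of a family adds to its share, so the shares do not rank families by reads. The leaf share of miR528 (39.5% and 41.8%) lies far right of its root share (5.85% and 7.92%), whereas miR166 and miR168 lie further right in root.

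Of the 149 entries, 119 differed between leaf and root (79.9%), 65 of them higher in leaf (43.6%) and 54 lower in leaf (36.2%), by edgeR's quasi-likelihood test at a Benjamini-Hochberg adjusted p under 0.05. On the normalised scale of this fit, the libraries of the 2 organs did not overlap for any of these 119. With 2 libraries a side this largely follows from a call and adds no support to it. The share without overlap among all 149 entries is not given here. Of the 65 entries higher in leaf, 50 differed at least 2-fold and 25 at least 8-fold, with a median log2 size of 2.27. Of the 54 lower in leaf, 44 differed at least 2-fold and 16 at least 8-fold, with a median of 1.49. In 103 groups of near-identical entries, 47 were called higher in leaf and 38 lower. The filter took libraries of either organ, so an entry could pass through 1 organ alone. For such entries the filter favoured a higher value in that organ, and they are included in these counts. Among others this held for miR160a*, miR167b*, miR171d*, miR171e*, miR171g, miR171i*, miR171l, miR159c, miR319b, miR396e and miR396f*. These samples are whole organs, and fewer cells of a type cannot be told apart from less RNA per cell. By strand, 46 guides were higher in leaf, 30 lower and 21 not called, and 19 star strands were higher in leaf, 24 lower and 9 not called.

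The sizes given above are those with TMM factors. Both these sizes and the split between the directions depended on the scaling. The median log2 difference over all entries was 0.36 with TMM factors, 0.03 with median-ratio factors and -0.41 with plain totals of listed counts, and the higher and lower counts became 52 and 59 under the second and 41 and 69 under the third. All 54 entries lower in leaf and 41 of the 65 higher in leaf were called the same way under these 3 scalings. Those 95 calls carry the description that follows, and an entry whose call was lost under one of the scalings is marked as such.

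**Figure D2:**
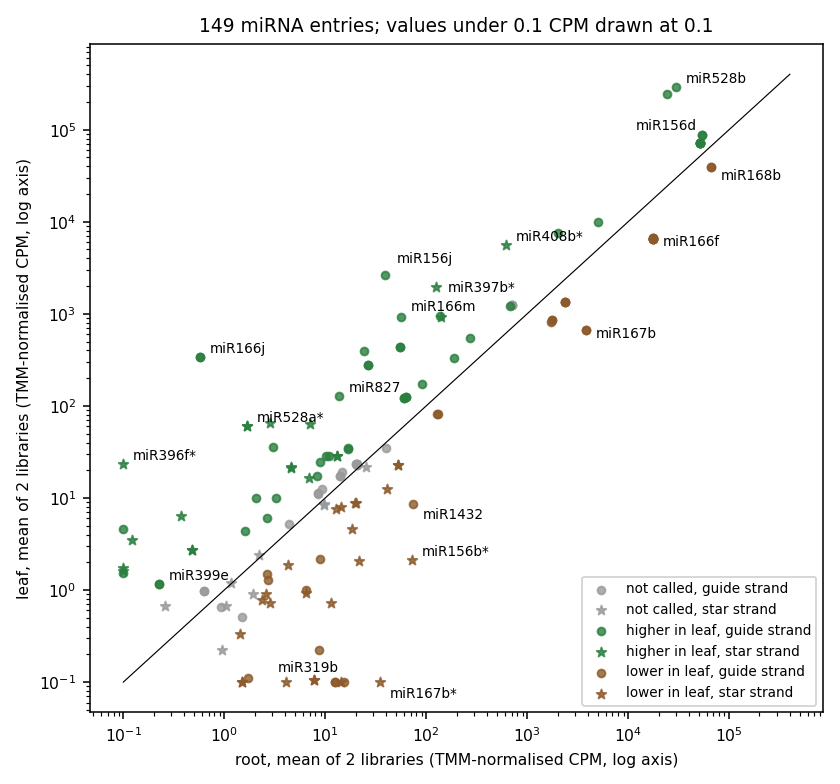
Mean level in leaf (vertical) against root (horizontal) of the 149 entries in TMM-normalised CPM (counts scaled to 1000000 per library) on log axes, 2 libraries an organ, with guide strands as circles and star strands as stars. Entries higher in leaf (green) reach from miR396f* near the left edge to miR528b at the top, and entries lower in leaf (brown) include abundant guides such as miR168b and miR166f and star strands such as miR167b*.

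The miRNAs of copper proteins were higher in leaf without exception among the entries past the filter. All 14 entries of miR397, miR398, miR408 and miR528 were called higher in leaf under all 3 scalings, with a median log2 of 3.50 against 0.36 over all 149 entries, and 11 separate groups of near-identical entries made up the list. These families direct cleavage of mRNAs for laccases, plantacyanins and copper/zinc superoxide dismutase, and miR528 is found in monocots. The monocot family's miR528b had 2372007 and 2892041 counts in the leaf libraries and 304989 and 357009 in the root libraries, or 291381 ± 22025 CPM in leaf and 29554 ± 6707 CPM in root (SD, n = 2). The difference was log2 3.30 (SE 0.21, edgeR adjusted p = 4.64e-07), a 9.86-fold higher level in leaf. Set against miR168a within the same library, which needs no scaling between libraries, miR528b stood 6.60 and 8.24 times above it in leaf and at 0.385 and 0.494 of it in root. Its star strands differed by a larger factor than the guides: miR528a* had 601 and 481 counts in leaf and 19 and 19 in root, log2 5.16 (SE 0.36, edgeR adjusted p = 3.05e-07). The log2 ratio of guide to star of miR528a differed by -1.75 (leaf minus root, SE 0.31, limma adjusted p = 0.00460).

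Among the laccase-targeting miR397 entries, miR397b had 3136 and 3979 counts in leaf and 289 and 256 in root, log2 4.03 (SE 0.29, edgeR adjusted p = 3.33e-07). Its star strand miR397b* was the more abundant of the pair, with 16116 and 19542 counts in leaf and 1320 and 1485 in root, a 15.8-fold difference (log2 3.98, edgeR adjusted p = 3.33e-07). With TMM factors both strands were thus more than 10 times higher in leaf. The median log2 of the 3 miR397 entries was 3.98 with these factors and 3.22 with listed-count totals. The miR398 family, which acts on superoxide dismutase and its copper chaperone, ran in the same direction, with miR398b* at 622 and 547 counts in leaf and 36 and 29 in root, log2 4.50 (SE 0.31, edgeR adjusted p = 3.05e-07). The plantacyanin-targeting miR408 was represented mainly by its star strand, miR408b*, at 5638 ± 239.6 CPM in leaf and 623 ± 68.1 CPM in root (SD, n = 2), log2 3.18 (SE 0.26, edgeR adjusted p = 6.17e-07). The guide miR408b had 3639 and 4244 counts in leaf and 721 and 525 in root.

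Of the phosphate-starvation miRNAs, both strands of miR827 were higher in leaf in these phosphate-fed plants, under the 3 scalings. For miR827, which targets SPX-domain transporters in rice, the guide had 1021 and 1302 counts in leaf and 178 and 134 in root, and the star strand had 486 and 663 counts in leaf and 85 and 76 in root. The fold differences of the strands were 9.38 and 8.92. For miR399, which represses the ubiquitin-conjugating enzyme PHO2 and so promotes phosphate uptake, miR399e and miR399i had the same 11 and 10 counts in leaf and 2 and 3 in root. Both reached the minimum of 10 counts only in the 2 leaf libraries of day 0, so the filter favoured a higher value in leaf, and they had largely the same reads. This is a ratio of 5.29 with an exact 95% binomial interval of 1.94 to 17.96, covering counting error only, and DESeq2 gave adjusted p of 0.0522 and 0.0542 for these entries. The other miR399 entries lay below the filter, among them miR399g with 0 and 0 counts in leaf and 3 and 3 in root. Of the 4 entries of miR395, which acts on ATP sulfurylase and a sulfate transporter, only miR395b* was called, lower in leaf, with 12 and 4 counts in leaf and 36 and 24 in root (edgeR adjusted p = 0.0196). No entry of miR395 was called without leaf replicate 2 or with near-identical entries counted once.

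The auxin families had calls in both directions. Of 24 entries of miR160, miR167, miR390 and miR393, 9 were higher in leaf, 11 lower and 4 not called, against 79.9% called over all entries, with a median log2 of -0.23. Under the 3 scalings 6 and 11 of these calls held. Of 16 groups of near-identical entries, the main fit called 7 higher and 6 lower. Refitted with near-identical entries counted once and new TMM factors, 7 were higher, 4 lower and the median 0.52, so the balance of the directions did not hold. The guides of miR167, which target auxin response factors of the ARF6 and ARF8 kind, were higher in root under the 3 scalings. The main fit called 4 of the 7 groups of near-identical miR167 entries lower in leaf and 2 higher. In the refit with near-identical entries counted once, 2 were called lower and 2 higher. The guide miR167b had 5714 and 6300 counts in the leaf libraries and 48099 and 39485 in the root libraries, log2 -2.53 (SE 0.20, edgeR adjusted p = 5.23e-07). The miR167e and miR167f guides differed 1.77-fold each. In the opposite direction stood miR393, which targets the TIR1/AFB auxin receptors: 4 of its 5 entries were higher in leaf, miR393a with 242 and 274 counts in leaf and 133 and 97 in root, a 2.84-fold difference (edgeR adjusted p = 1.04e-04). The guide miR390a, which triggers TAS3 trans-acting siRNAs, had 4743 and 4987 counts in leaf and 2979 and 3105 in root, and miR160d, which targets ARF10-type repressors, stood at 34.5 ± 3.64 CPM in leaf and 16.8 ± 3.95 CPM in root. Both were called higher in leaf with TMM factors, but not with listed-count totals, where their log2 differences were 0.24 and 0.27 (edgeR adjusted p = 0.175 and 0.334), and miR160d also lost its call without root replicate 2 (log2 0.69, edgeR adjusted p = 0.0588).

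Some star strands of the auxin families had counts in 1 organ almost alone. No read of miR167b* was counted in leaf, against 394 and 389 counts in root, which put root at least 207-fold higher when leaf is set at a floor of 3 counts over both libraries. The star strand of another hairpin of that family, miR167h*, went the other way with 7270 and 9494 counts in leaf and 1749 and 1464 in root, log2 2.71 (SE 0.28, edgeR adjusted p = 3.95e-06), whereas its guide miR167h was higher in root, log2 -1.05 (SE 0.22, edgeR adjusted p = 0.00115). In leaf miR167h* stood at 1.03 and 1.15 times its guide, and in root at 0.0776 and 0.0838. For miR160a*, 0 and 1 counts stood against 154 and 170, a ratio of 257 with a counting interval of 45.8 to 10190.

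The 52 entries of the organ-patterning families (miR159, miR164, miR166, miR171, miR319 and miR396) held 18 higher in leaf, 24 lower and 10 not called, a called share close to the 79.9% over all entries, with a median log2 of 0.16. Under the 3 scalings 11 and 24 of these calls held. The families differed in how their members lined up: the miR319 entries were all lower in leaf, those of miR396 all higher, and those of miR166 on both sides. The plot of differences by family shows this spread from one family to the next.

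**Figure D3:**
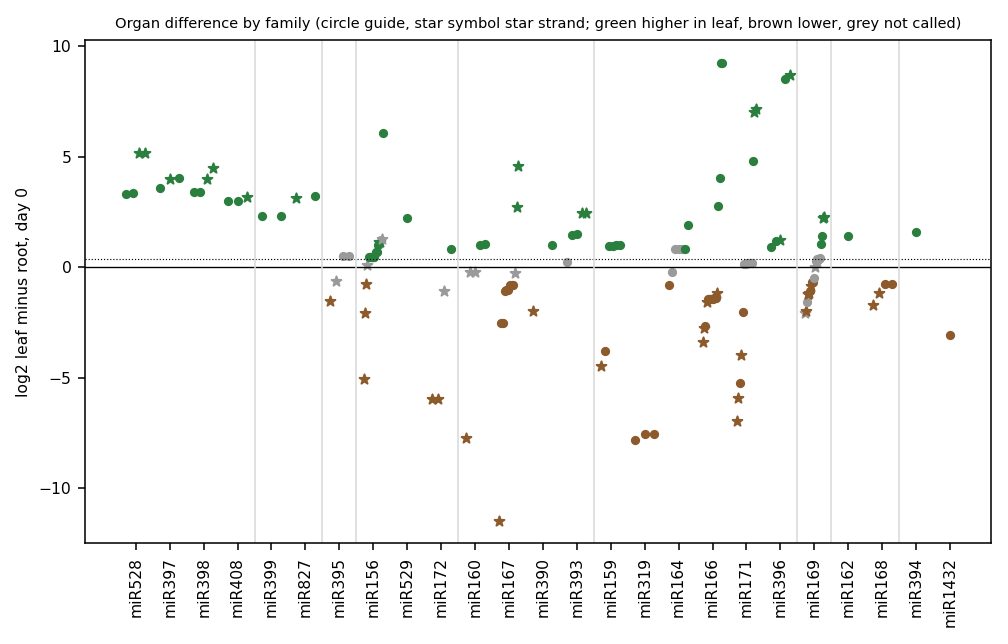
Log2 leaf minus root difference on day 0 of each of the 149 entries, grouped by family, with vertical lines between lists of families with like targets; the solid line is 0 and the dotted line is the median of all entries, 0.36. The copper families at the left are all above both lines, miR166 and miR171 hold entries on both sides, and miR319 lies near -7.5.

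Within miR166, which limits HD-ZIP III transcription factors and so shapes leaf polarity and vascular patterning, 13 of 17 entries were lower in leaf and 4 were higher, all under the 3 scalings. The 17 entries formed 9 groups of near-identical entries, of which the main fit called 6 lower and 3 higher. A fit with near-identical entries counted once and TMM factors computed anew called 4 lower and 3 higher. Neither gave the balance of 13 to 4. One of the 13, listed as miR166d, had 8 and 10 counts in leaf and 81 and 65 in root. The star strand miR166b* had nearly the same counts, 7 and 10 in leaf and 81 and 65 in root. The abundant guides had near-identical counts, and miR166f is given for them. It had 60034 and 59774 counts in leaf and 199211 and 195817 in root, log2 -1.39 (SE 0.18, edgeR adjusted p = 2.52e-05). The 4 exceptions were miR166j, miR166k, miR166l and miR166m. For miR166j the counts were 2940 and 3150 in leaf and 1 and 11 in root, a ratio of 639 with a counting interval of 366 to 1238, and miR166k had near-identical counts. The values for miR166m were 8225 and 8458 counts in leaf and 736 and 561 in root, log2 4.03 (SE 0.26, edgeR adjusted p = 2.53e-07). Relative to miR166f in the same library, miR166m stood at 0.137 and 0.142 in leaf and at 0.00369 and 0.00286 in root. MIR166k and MIR166m follow each other with no annotated gene between them in the RefSeq annotation of Zm-B73-REFERENCE-NAM-5.0, an assembly of another line, used here for gene order alone.

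The miR396 entries, from a family that restrains growth-regulating factors, were called higher in leaf in 5 of 5 cases. Its star strand miR396f* had 216 and 204 counts in leaf and 0 and 1 in root, a ratio of 529 with a counting interval of 94.4 to 20946. The guide miR396e had 54 and 27 counts in leaf and none in root, at least 34.0-fold higher against the floor, while the more abundant miR396c differed 1.89-fold, a call lost with listed-count totals (log2 0.16, edgeR adjusted p = 0.489). MIR396a and MIR396e are also direct neighbours in that annotation, and miR396a was 2.30-fold higher in leaf, a call lost under one of the scalings.

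Members of miR319 and miR159, related families that act on TCP and GAMYB transcription factors, included entries with almost no counts in leaf. The entries miR319b, miR159c, miR171g and miR171l fell outside the rule for named entries and were chosen after their values were seen. The guide miR319b had 1 and 0 counts in leaf and 206 and 143 in root, a ratio of 277 with a counting interval of 49.4 to 10974. The guide miR159c had 1 and 1 counts in leaf and 23 and 16 in root, and MIR159c lies 1 annotated gene away from MIR319b. The abundant miR159 guides went the other way: miR159a had 1402 and 790 counts in leaf and 793 and 631 in root, log2 0.98 (SE 0.35, edgeR adjusted p = 0.0220). That call was lost without leaf replicate 1 (log2 0.41, edgeR adjusted p = 0.334), with any 1 of the 4 root libraries of the fit left out, and under both other scalings.

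For miR171, which targets GRAS proteins of the SCARECROW-LIKE kind, the abundant guides did not pass the test while rarer hairpins stood apart. The largest guide, miR171j, had 232 and 188 counts in leaf and 288 and 184 in root, log2 0.19 (SE 0.30, edgeR adjusted p = 0.561), and its direction turned with the scaling: log2 -0.16 with median-ratio factors and -0.57 with listed-count totals, where it was called lower in leaf (edgeR adjusted p = 0.0467). The guide miR171g had 2 and 2 counts in leaf and 102 and 95 in root, and miR171l had 12 and 16 in leaf and 0 and 1 in root. Star strands also fell on either side: miR171d* had 17 and 12 counts and miR171e* 20 and 11 counts in leaf with none in root, whereas miR171i* had none in leaf and 20 and 14 in root. These were at least 12.2-fold and 13.0-fold higher in leaf and at least 8.997-fold higher in root against the floor. Each of these star strands reached the minimum of 10 counts only in the organ where it was higher, so the filter favoured that direction. For miR164, which limits NAC transcription factors at organ boundaries, miR164e had 61294 and 76778 counts in leaf and 25249 and 20914 in root, log2 1.91 (SE 0.16, edgeR adjusted p = 8.32e-07). The guides miR164a, miR164b and miR164c were not called (log2 0.81, edgeR adjusted p = 0.0526). They passed the test without leaf replicate 1 (log2 1.10) and with any 1 of the 4 day 8 libraries left out. They were also called with the replicate block (edgeR adjusted p = 0.0433) and in the fit on only the 4 day 0 libraries (edgeR adjusted p = 0.00200). With median-ratio factors and with listed-count totals they were not called. The median log2 of the 7 miR164 entries, 0.81 in the main fit, was 0.49 and 0.04 under these scalings. It was 0.42 without leaf replicate 2.

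The phase-change families split by hairpin. Of 22 entries of miR156, miR529 and miR172, 14 were higher in leaf, 5 lower and 3 not called, against 79.9% called over all entries. The median log2 was 0.47. These entries formed 14 groups of near-identical entries, 7 called higher in leaf and 4 lower. Only 2 of the 14 calls higher in leaf held under the 3 scalings, against 5 of 5 lower. Those 2 were miR156j and miR529, both of families that target SPL transcription factors. For miR156j the counts were 21238 and 26306 in leaf and 445 and 433 in root, log2 6.08 (SE 0.28, edgeR adjusted p = 2.43e-08). The dominant miR156 guides differed little: miR156d had 730156 and 834982 counts in leaf and 687802 and 538288 in root, log2 0.69 (SE 0.09, edgeR adjusted p = 2.46e-05), and its log2 was 0.35 with median-ratio factors and -0.08 with listed-count totals, not called under either. For miR156a, log2 0.47 with TMM factors was -0.29 with listed-count totals, and its call was lost with any 1 of the 4 root libraries left out. Beside these guides, the star strand miR156b* had 21 and 17 counts in leaf and 778 and 832 in root, log2 -5.07 (SE 0.32, edgeR adjusted p = 2.05e-07). The star strand miR156l* was also lower in leaf, 1.68-fold, and was not called without leaf replicate 1 (log2 -0.61, edgeR adjusted p = 0.113). The guide miR172a, which acts on AP2-type factors, had 2870 and 3099 counts in leaf and 2320 and 1946 in root, log2 0.82 (SE 0.26, edgeR adjusted p = 0.0135). Its call was lost with listed-count totals (log2 0.06) and without leaf replicate 1 (log2 0.79, edgeR adjusted p = 0.0633) or leaf replicate 2 (log2 0.82, edgeR adjusted p = 0.0574).

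Among 22 entries of miR169, which targets NF-YA subunits of a CCAAT-binding transcription factor, 4 were higher in leaf, 8 lower and 10 not called (median log2 -0.22). Over all entries 79.9% were called. The lower count fell to 4 without leaf replicate 1, to 3 without leaf replicate 2 and to 1 with near-identical entries counted once. With at least 50 counts in 2 libraries, 10 were higher and 7 lower (median log2 0.52), so neither direction held for the list. The main fit called 7 of the 18 groups of near-identical miR169 entries lower and 3 higher. The hairpins a and b were higher in leaf on both strands, with miR169a at 314 and 195 counts in leaf and 128 and 116 in root and miR169a* at 187 and 207 counts in leaf and 48 and 54 in root. On the root side stood miR169r with 716 and 767 counts in leaf and 1712 and 1256 in root, a call lost without leaf replicate 1 or leaf replicate 2 (edgeR adjusted p = 0.107 and 0.132), and miR169c* with 38 and 46 counts in leaf and 209 and 210 in root. The guide miR169b lost its call with listed-count totals (log2 0.28, edgeR adjusted p = 0.256).

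The miRNAs of the silencing machinery itself divided by target. All 4 entries of miR168, which controls AGO1, were lower in leaf under the 3 scalings: miR168b had 359482 and 351033 counts in the leaf libraries and 791420 and 723108 in the root libraries, log2 -0.76 (SE 0.13, edgeR adjusted p = 3.09e-04), and miR168b* was 3.28-fold lower. The 4 entries formed 3 groups of near-identical entries, and the main fit called all 3 lower. In the refit with near-identical entries counted once and new TMM factors, 1 of 3 was called lower. The single entry of miR162, which controls DCL1, was higher in leaf with 42 and 37 counts against 21 and 16, a call lost under one of the scalings. Of the remaining families, miR394a, whose target is an F-box gene, was 3.03-fold higher in leaf, and miR1432, which targets EF-hand calcium-binding proteins in rice, had 68 and 89 counts in leaf and 878 and 782 in root, log2 -3.07 (SE 0.29, edgeR adjusted p = 1.64e-06).

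The ratio of guide to star counts was compared within hairpins, a measure that needs no scaling between libraries. Of 73 hairpins, 35 had a different ratio in leaf and root (47.9%) by limma at an adjusted p under 0.05, 23 with relatively more guide in leaf and 12 with relatively more guide in root. The median difference over all 73 was 0.14 on the log2 scale. A guide sequence can come from several hairpins and a star strand often from one, so a ratio does not always compare the strands of one hairpin. Some pairs had near-identical counts on both strands, such as miR167h and miR167i, miR172b and miR172d, and miR160b and miR160g. The 35 calls and the largest differences named below are therefore not all separate. Without root replicate 2 the count was 23, 13 and 10 by direction.

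The 6 largest differences toward guide in leaf were those of miR160a, miR167b, miR172d, miR172b, miR156b and miR171f. In each of them the star strand had at most 21 counts in a leaf library. For miR160a the guide had 312 and 294 counts in leaf and 239 and 145 in root, and with its star counts given above the log2 ratio differed by 8.25 (SE 0.88, limma adjusted p = 6.33e-04). For miR156b the difference was 5.73 (SE 0.31, limma adjusted p = 3.89e-05). The star strand of miR172b had 0 and 2 counts in leaf and 71 and 101 in root beside a guide shared with miR172a, a difference of 6.74.

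The 6 largest in the other direction were miR167c, miR171e, miR171d, miR166h, miR167h and miR167i. For miR167c the star strand had 32 and 30 counts in leaf and 3 and 0 in root, while its guide, shared with miR167a, was higher in root, giving a difference of -7.43 (SE 0.79, limma adjusted p = 6.33e-04). The value for miR166h, -4.61, rests on star counts of 5 and 2 in leaf and none in root. For miR167h the difference was -3.75 (SE 0.25, limma adjusted p = 6.17e-05); its star strand had 1464 or more counts in each of the 4 libraries.

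In 5 hairpins the strand named as star outnumbered the guide in all 4 libraries: miR169i, miR169k, miR396a, miR397b and miR408b. For miR408b the star stood at 13.7 and 12.1 times the guide in leaf and at 9.80 and 13.3 times in root, and for miR397b at 5.14 and 4.91 times in leaf and 4.57 and 5.80 times in root. Their ratio differences were -0.18 (SE 0.27) and 0.03 (SE 0.25) on the log2 scale, neither of which was called (limma adjusted p = 0.652 and 0.926). Guide and star were 8.00-fold and 9.05-fold higher in leaf for miR408b, and 16.4-fold and 15.8-fold for miR397b. For miR827 the ratio difference was 0.08 (SE 0.26, limma adjusted p = 0.842).

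**Figure D4:**
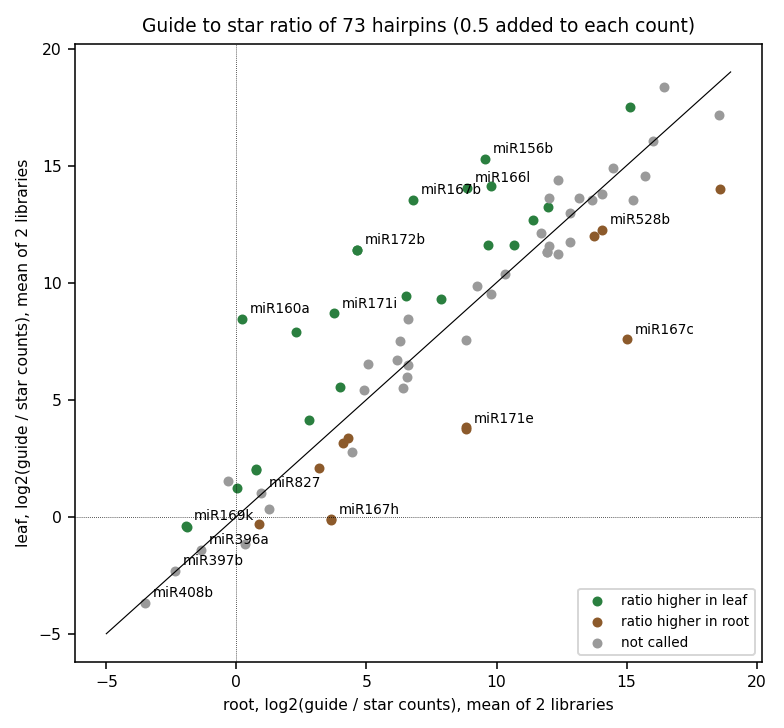
Log2 ratio of guide to star counts of 73 hairpins in leaf (vertical) and root (horizontal), mean of 2 libraries an organ with 0.5 added to each count; the solid line is equality and the dotted lines mark equal strands. Hairpins called for relatively more guide in leaf (green, 23) lie above the line, led by miR160a and miR167b, those called for more guide in root (brown, 12) lie below it, led by miR167c, and miR408b and miR397b sit on the line at the lower left.

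A further leaf and root library, labelled as 0 days of low phosphate and listed as separate samples, gave the same comparison once more in RPM (reads scaled to 1000000 per library), with 1 library an organ and so without a test. Of the 119 entries called at sufficient phosphate, 94 had a value in both organs there. In 56 of these the organs differed at least 2-fold in the same direction with at least 10 RPM in the higher organ, in none at least 2-fold in the opposite direction, and 38 fell under that size. Of the 25 without both values, 22 were given a value only in the organ where they had been called higher. The abundant guide miR528b was at 233652 RPM in leaf and 24046 in root, miR166j at 236 and 1.23, miR156j at 1770 and 80.4, and miR167b at 765 and 3435.

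An opposite sign at any size was found for 7 entries, all under the size rule. They were miR1432, miR159a, miR159b, miR159f, miR159j, miR160a and miR395b*. The calcium-related miR1432 was at 58.4 RPM in leaf and 45.5 in root, a difference of 0.35 on the log2(RPM + 1) scale, against -3.07 at sufficient phosphate. The 4 near-identical miR159 guides had -0.48 each, against log2 differences of 0.98 to 1.01 with TMM factors. The 2 sets are scaled differently, since RPM carry no TMM factors. The median difference was -0.14 over the 120 entries with RPM in both organs and 0.36 over the 149 entries with TMM factors. With listed-count totals the log2 difference of miR159a at sufficient phosphate was 0.23.

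**Figure D5:**
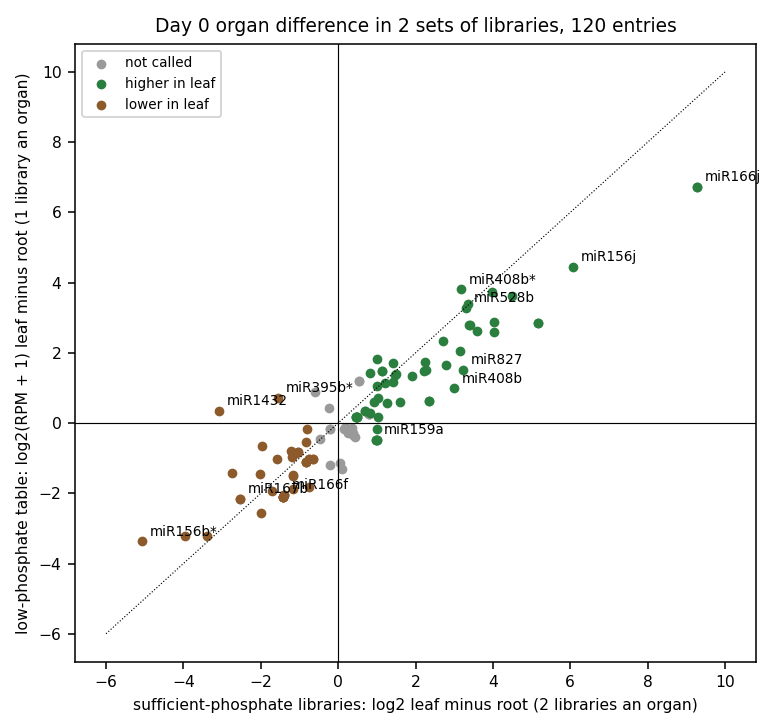
Leaf minus root difference of 120 entries in the day 0 libraries of the low-phosphate table, on the log2(RPM + 1) scale with 1 library an organ (vertical), against the log2 difference at sufficient phosphate with 2 libraries an organ (horizontal); the dotted line is equality. Most called entries lie in the lower left and upper right parts, and miR1432 lies at -3.07 on the horizontal axis and 0.35 on the vertical.

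Whether the organ difference was the same a stage later was tested against the day 8 libraries of the 4-leaf stage, as leaf minus root on day 0 minus that on day 8. Of the 149 entries, 9 differed (6.04%), 8 with a higher and 1 with a lower value on day 0. These numbered 2 and 2 with median-ratio scaling, and 2 and 3 with listed-count totals or without miR528, so the direction of the split did not hold. The list median stayed close for the copper families (3.50 on day 0 and 3.49 on day 8), and all 14 of their entries were called higher in leaf at both stages. The 9 entries were 6 near-identical miR156 guides and the star strands miR169c*, miR169k* and miR167h*. No entry was called without leaf day 0 replicate 1 or without leaf day 0 replicate 2, while 19 were called without leaf day 8 replicate 1 and 20 without leaf day 8 replicate 2. The root day 8 libraries carry day 8 in their titles and the 4-leaf stage in their tissue label, but day 0 in their source name.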

How the data were processed

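Small RNA of 4 sufficient-phosphate libraries (leaf and root, day 0, 2 each) was compared; the 4 day 8 libraries entered the same fit. The count table deposited by the authors holds whole-number read counts per listed miRNA, from cleaned HiSeq tags per the series' design text, and was read as raw counts since its values are whole and its totals unequal; no source used here names an aligner, miRNA release or genome build. The low-phosphate signal values are RPM that the authors deposited, that is counts divided by clean reads times 1000000. Entries with at least 10 counts in 2 of 8 libraries entered a model in edgeR 4.0.16 under R 4.3.3 (TMM factors, robust quasi-likelihood fit, 4 groups, 4 residual degrees of freedom, Benjamini-Hochberg adjustment over 149 entries, threshold 0.05). CPM use TMM-scaled totals, and SE is the log2 difference over the root of F, an approximation. Guide to star ratios used log2 of counts plus 0.5 in limma 3.58.1, over hairpins with at least 10 guide and star counts in each day 0 library. Low-phosphate values were compared as log2(RPM + 1), with a call at 2-fold and 10 RPM in the higher organ. Floors are 3 counts over a group; rare ratios carry exact 95% Clopper-Pearson intervals for counting error only.

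The entries and family lists were chosen with earlier results of these data known. Entries named are the 10 largest differences each way at a mean of at least 10 CPM, the most abundant of each family at that mean, members against their family's direction, phosphate entries, the most abundant uncalled entries, those at 0 in an organ and those called between stages. Other entries in the text were chosen after their values were seen. The hairpins named are the 6 largest ratio differences each way. Each repeat is a pool of plants, and nothing in the labels says that pools were grown separately, so p-values measure the spread between these pools. With 2 against 2 libraries an exact two-sided permutation test cannot go below 0.33, so calls rest on the spread shared across entries. The labels do not say that replicate numbers pair libraries. Just inside the filter were miR156k*, miR399i and miR399e, with a second-highest count of 10; just outside was miR159a*, with 9. One name, miR166d, stands in 2 rows with different values and was left out of the low-phosphate comparison. Alternatives, the DESeq2 1.42.0 fit among them, stand in the closing section; tables were handled in Python 3.11.15 with pandas 2.3.3.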

Additional observations from a re-analysis of the deposited data

Results flagged for a closer look

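Because of a difference between stages, 9 entries were marked: their organ difference was not the same on day 0 and day 8 by the test of the difference itself (edgeR adjusted p under 0.05 over 149 entries). Of these, 6 are miR156 guides that rest largely on the same reads: the log2 leaf minus root difference on day 0 exceeded that on day 8 by 0.48 for miR156a, miR156c, miR156e, miR156f, miR156g and miR156l. For miR156a the values were on day 0 72042 ± 1680 CPM (leaf) and 51886 ± 2936 CPM (root), and on day 8 52322 ± 424 and 52588 ± 494 (SD, n = 2). The 6 miR156 stage calls were lost with median-ratio scaling and with listed-read totals (miR156a, edgeR adjusted p = 0.510 and 0.459). With listed-read totals the day 0 log2 difference of miR156a was -0.29. The star strand miR167h* had a difference between stages of -1.47, miR169c* of 2.38 and miR169k* of 1.33. None of the 9 was called without leaf day 0 replicate 1 or 2.

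The entry miR1432 was marked because its leaf minus root difference was 0.35 on the log2(RPM + 1) scale in the day 0 libraries of the low-phosphate table, the opposite sign to both replicates at sufficient phosphate, where leaf had 68 and 89 counts and root 878 and 782. This difference was not tested, since that table holds 1 library an organ.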

How the results depend on the processing

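The total of calls held while its split moved. Of the 119 day 0 calls none changed direction as a call under any alternative; 106 were kept with median-ratio scaling, 95 with listed-read totals, 104 with DESeq2 and 116 with limma-voom. The entries higher in leaf numbered 41 with listed-read totals (69 lower). The entries lower in leaf numbered 23 when near-identical entries were counted once (49 higher, 103 tested), an alternative chosen after seeing the data. That fit computed TMM factors anew, and its median log2 was 0.85 against 0.36 in the main fit. In the main fit the same 103 groups held 38 called lower and 47 called higher. Apart from the fewer entries of the second alternative, the cause of these shifts was not tested. Leaving out a library gave 52 to 68 entries higher and 47 to 57 lower. Nothing in the labels says that replicate numbers pair libraries, and with 2 replicates the deviations cannot settle it: same-numbered day 0 leaf and root libraries had r of 0.31, and other pairs -0.17 to 0.01. With the replicate block 68 entries were higher in leaf and 55 lower. Without the miR528 entries in the fit and the scaling, also added later, they numbered 56 and 55.

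The 9 stage calls were the least stable: 4 with median-ratio scaling, 5 with listed-read totals, with no filter on low counts, with DESeq2 and without miR528, 1 with the replicate block and with near-identical entries counted once, and 0 with limma-voom (22 at an unadjusted p under 0.05). Leaving out a library gave 0 to 20. The 35 ratio calls ranged from 23 to 40 with a library left out, and 41 were called with 5 added to each count, 32 of them shared with the 35; miR164f turned from a called 1.42 to -0.15 there (limma adjusted p = 0.620).

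Named entries whose sign turned lacked a call in at least 1 of the fits compared. With listed-read totals the log2 difference was -0.29 for miR156a, miR156c, miR156e, miR156f, miR156g and miR156l, and -0.075 for miR156d. For miR164f it was 0.031 with at least 50 counts in 2 libraries and 0.29 with near-identical entries counted once, and for miR167j* 0.25 in the latter. For miR171j it was -0.16 with median-ratio scaling, -0.16 with DESeq2, -0.57 with listed-read totals, and -0.12 to 0.38 with a library left out.

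Depth limits the rare entries: 48 rows fell below the filter, and entries at 0 in an organ carry lower bounds only.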
